A study of Mus musculus with 8 samples.

Results

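The genes described here encode receptors with which macrophages bind modified lipoproteins, microbes, debris and dying cells, and the ligands that tie some of these receptors to a dying cell. They were taken as the 10 rows of the deposited expression table whose gene symbol was Marco, Msr1, Cd36, Scarb2, Stab1, Mertk, Axl, Gas6, Pros1 or Lrp1, out of 55471 rows, and each symbol stood on 1 row. The RNA was that of microglia, the macrophages that live in brain tissue, of C57/Bl6 mice, both females and males, at postnatal day 30. The cells came from the hippocampus, taken 4 hours after the mice had received interleukin-33 (IL-33), a cytokine of the interleukin-1 family, by injection in 4 libraries (replicates 1 and 2 female, 3 and 4 male), or phosphate-buffered saline (PBS) in the other 4 (replicates 5 and 6 female, 7 and 8 male). They had been sorted as CD45lo/CD11B+/Ly-6C- cells, and the mice carried no allele or agent that the labels name besides the injection. The series title sets the experiment within work on how microglia remodel the extracellular matrix.

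Scavenger receptors are a loose family defined by what they bind. The class A receptors MARCO and MSR1 are trimers with a collagen-like stalk, the class B receptors CD36 and LIMP-2 (the product of Scarb2) span the membrane at both ends, and stabilin-1 (Stab1) is a large endocytic receptor. MERTK and AXL are receptor tyrosine kinases of the TAM family, named after TYRO3, AXL and MERTK. They do not bind dying cells themselves: the secreted proteins GAS6 and protein S (Pros1) attach to phosphatidylserine on the surface of a dying cell and bridge it to the receptor. LRP1 is a large endocytic receptor that takes up apolipoprotein E, protease complexes and calreticulin-marked cells. In mice MERTK is the TAM receptor of resting tissue macrophages and clears dying cells, whereas AXL is typically raised in inflamed macrophages.

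The QuantSeq kit used (Lexogen, FWD version) sequences only the 3' end of each polyadenylated RNA, so a value does not grow with the length of a gene. The libraries held 16.83 M to 21.48 M reads assigned to genes, and 7958 to 11902 genes had at least 10 reads. The 2 male IL-33 libraries, replicates 3 and 4, had the fewest such genes (8948 and 7958), and calls that named genes lost or gained without this pair are given beside them. The defining microglial markers were present: the summed level of 8 of them was 364978 to 641253 after IL-33 and 513169 to 762217 after PBS, and 4 of the 8 were lower after IL-33. All 6 neutrophil markers were at 0 in every library. The summed level of 8 markers of border-associated macrophages was 10.9 to 739.8 after IL-33 and 31.5 to 595.3 after PBS, with Cbr2 at 0 throughout. That of 6 monocyte markers was 113.7 to 509.4 and 6.82 to 162.6, with Ly6c2, Plac8, Chil3 and F10 at 0 in all 4 IL-33 libraries. The other monocyte markers were Vcan, at 253.8 ± 187.8 after IL-33 and 0.21 ± 0.41 after PBS, and Ccr2, at 80.3 ± 55.2 and 27.0 ± 30.9. The 6 astrocyte markers summed to 5567 to 8508 after IL-33 and 3079 to 5588 after PBS. Most of that was Slc1a3 alone, with means of 6263 and 3989 against 6932 and 4348 for all 6. The 5 oligodendrocyte markers summed to 2703 to 4958 after IL-33 and 1361 to 3313 after PBS. Of these Mbp did not overlap between the groups, at 882.6 to 2694 after IL-33 and 446.8 to 858.5 after PBS, and none of the 5 passed the limma test described below. The 6 endothelial markers summed to 3.82 to 229.9 and 108.4 to 699.5. The 5 neuronal ones summed to 50.3 to 1886 and 218.1 to 843.4. The part of these other cell types in the results below was not tested.

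The promoters of 9 of the 10 genes (all but Msr1) were in a table of RefSeq sequences of build GRCm38.p6 that runs from 250 bases before to 50 after each annotated start. They are shown for Marco, which rose most, for Mertk, the fall with the smallest adjusted p, and for Scarb2, where a motif was found. The Marco window is chr1:120504975-120505274 on the minus strand, the Mertk window chr2:128698665-128698964 on the plus strand, and the Scarb2 window chr5:92505608-92505907 on the minus strand. Capitals mark a match to the NF-κB consensus.
Marco: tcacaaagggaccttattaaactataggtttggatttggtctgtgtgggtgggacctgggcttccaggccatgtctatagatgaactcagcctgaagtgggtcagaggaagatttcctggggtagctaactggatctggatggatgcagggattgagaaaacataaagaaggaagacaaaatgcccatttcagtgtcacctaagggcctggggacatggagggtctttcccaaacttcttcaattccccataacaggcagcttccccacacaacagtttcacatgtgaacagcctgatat
Mertk: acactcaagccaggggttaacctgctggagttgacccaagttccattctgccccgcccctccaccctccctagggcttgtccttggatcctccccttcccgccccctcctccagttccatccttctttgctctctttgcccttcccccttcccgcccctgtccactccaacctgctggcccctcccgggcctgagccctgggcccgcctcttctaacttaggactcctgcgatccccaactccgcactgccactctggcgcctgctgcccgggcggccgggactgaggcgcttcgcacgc
Scarb2: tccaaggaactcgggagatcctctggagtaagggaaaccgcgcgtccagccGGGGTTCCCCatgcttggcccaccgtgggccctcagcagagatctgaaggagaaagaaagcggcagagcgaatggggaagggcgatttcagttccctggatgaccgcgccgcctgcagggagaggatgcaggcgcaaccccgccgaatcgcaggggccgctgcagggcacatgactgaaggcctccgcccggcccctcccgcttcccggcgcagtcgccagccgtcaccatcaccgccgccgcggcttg
The motifs below were searched on both strands: the NF-κB consensus, an AP-1 site (TGANTCA) and a core of the PU.1 site (GAGGAAGT). Of all 32851 promoters of this length, 8.46% held the NF-κB consensus, 7.81% the AP-1 site and 3.20% the PU.1 core. The only match among the 9 windows was an NF-κB match in Scarb2, GGGGTTCCCC, whose first base lies at position -199 from the start site, and Scarb2 was lower after IL-33. That start site is the RefSeq one, and the Scarb2 window lies wholly within the gene as annotated by GENCODE, which runs to 92506833. A match is a string of letters and not a bound site, and a window without one says nothing of sites elsewhere.

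The comparison asked how the expression of these genes differed between IL-33 and PBS. Of the 10 genes 9 had enough reads to be tested. Marco, Msr1 and Axl were higher after IL-33, Mertk, Gas6, Scarb2, Stab1 and Lrp1 were lower, and Pros1 did not pass the test. The test was limma's moderated test on log2(normalised reads + 1), with a Benjamini-Hochberg adjusted p under 0.05 over all 13877 tested genes. Over all tested genes 3.06% were called higher and 2.80% lower, against 3 and 5 of the 9 genes here. Of the 3116 tested genes with a mean of at least 1000, 341 were called higher and 260 lower. In 7 of the 9 the IL-33 and PBS values did not overlap, against 13.7% of all tested genes, and the 2 that overlapped were Gas6 and Pros1. In limma without a variance trend only Marco passed (adjusted p = 0.0619 to 0.364 for the other 8), and without a filter on low values Msr1, Axl, Gas6 and Lrp1 did not (0.0600 to 0.105). The median log2 fold change of the 9 was -1.23, that of all tested genes -0.40, and that of the 3116 tested genes with a mean of at least 1000 was 0.08. Values below are normalised reads, means are ± SD with n = 4 per group, and fold changes are on the log2(value + 1) scale, ± SE. In bulk RNA a lower value can mean fewer cells that express the gene or less RNA per cell, which cannot be told apart.

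**Figure D1:**
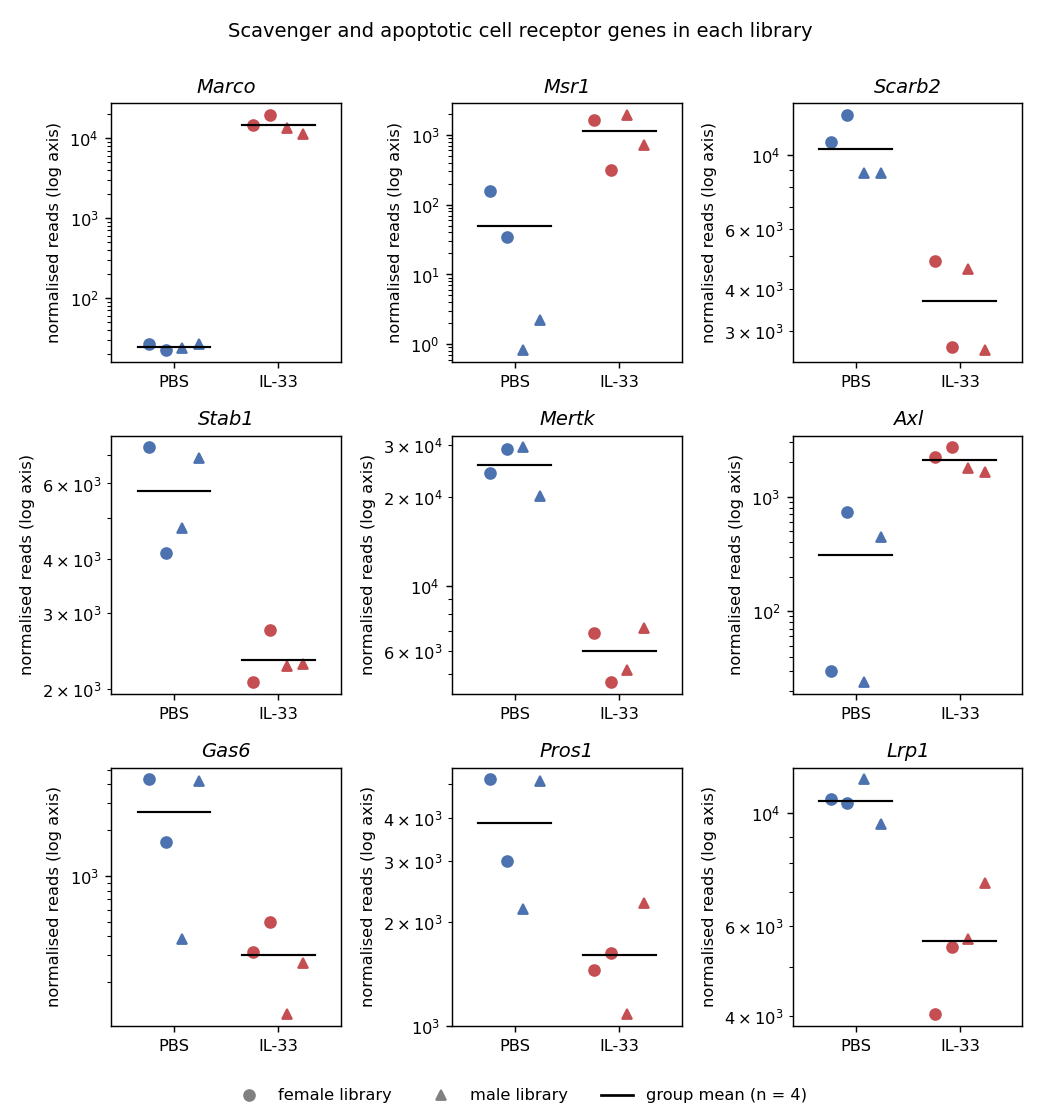
Normalised reads of the 9 tested genes in each library, on log axes whose ranges differ between panels; circles are female and triangles male libraries, and black lines are group means (n = 4). The groups are apart in all panels but those of Gas6 and Pros1, and the PBS libraries are widely spread for Msr1, Axl and Gas6.

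Among the class A scavenger receptors, Marco (chromosome 1, 120474538 to 120505024, GRCm38), whose product binds bacteria and unopsonised particles, was at 14465, 19474, 13482 and 11423 in IL-33 replicates 1 to 4 and at 26.2, 22.2, 23.8 and 26.4 in PBS replicates 5 to 8. All IL-33 libraries were high and all PBS libraries low, and the groups were far apart. The mean rose from 24.6 ± 2.04 to 14711 ± 3419 (log2 fold change 9.14 ± 0.61, limma adjusted p = 6.01e-09), a ratio of means of 597. It was called under all 21 alternative settings. The PBS mean was 0.168% of the IL-33 mean, from 26 to 36 reads per library. Xist, an RNA of female cells with an inactive X chromosome, stood in the male libraries at 0.293% of its female mean. Whether the Marco reads of the PBS libraries came from their own cells was not tested.

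Msr1 (chromosome 8, 39581685 to 39642673), the other class A receptor among the genes of the main list, takes up acetylated and oxidised lipoproteins. It was at 1612, 314.8, 1919 and 721.1 after IL-33 and at 158.3, 34.9, 0.82 and 2.20 after PBS. The 2 male PBS libraries were the lowest, with 1 and 3 reads, and the groups did not overlap. The mean rose from 49.1 ± 74.5 to 1142 ± 749.7 (6.08 ± 1.56, limma adjusted p = 0.0236). edgeR on the recovered reads gave a smaller change (4.54, adjusted p = 0.0281). The limma call was lost without IL-33 replicate 1 (adjusted p = 0.0856), IL-33 replicate 3 (0.0900) or PBS replicate 8 (0.0549), and without both male IL-33 libraries (5.72, adjusted p = 0.183).

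Within a library the ratio of Marco to Msr1 reads ran from 7.02 to 61.9 after IL-33 and from 0.17 to 29.0 after PBS, where it rests on few reads of both genes. The ranges overlapped. The mean log2 ratio was 3.98 ± 1.40 after IL-33 and 0.92 ± 3.02 after PBS, a difference of 3.06 (two-sided exact permutation p = 0.171, adjusted p = 0.171 over the 3 ratios tested). With 5 in place of 1 added to each value the difference was 3.60 and passed (adjusted p = 0.0429), and without PBS replicate 5 it was 1.90 (adjusted p = 0.343). With 4 against 4 libraries the smallest possible p is 0.0286.

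Cd36 (chromosome 5, 17781690 to 17888801), a class B receptor for long-chain fatty acids and oxidised lipoproteins, had 0 reads in all 8 libraries and was not tested. A count of 0 allows up to 3 reads, which is 2.20 to 3.12 on the normalised scale depending on the library. That limit covers counting error only.

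Scarb2 (chromosome 5, 92441314 to 92506833), the other class B receptor gene of the main list, encodes a lysosomal membrane protein that also carries cargo to the lysosome. It was at 4839, 2691, 4574 and 2633 after IL-33 and at 10905, 13078, 8840 and 8839 after PBS. All IL-33 libraries were below all PBS libraries. The mean fell from 10416 ± 2025 to 3684 ± 1185 (-1.54 ± 0.29, limma adjusted p = 0.00229).

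Stab1 (chromosome 14, 31139013 to 31168641), whose product takes up modified lipoproteins and the matrix glycoprotein SPARC, was at 2072, 2742, 2265 and 2283 after IL-33 and at 7282, 4129, 4717 and 6871 after PBS. The IL-33 libraries were close together and below all PBS libraries. The mean fell from 5750 ± 1560 to 2340 ± 284.1 (-1.26 ± 0.32, limma adjusted p = 0.0224). Without PBS replicate 5 or 8, the 2 highest libraries, the adjusted p was 0.0999 or 0.0962. The 3' end of Stab1 lies within Nt5dc2 on the opposite strand, which went from a mean of 612.1 after PBS to 187.4 after IL-33. Whether counting used the strand is not given in the sources used here, so reads of the 2 genes may be mixed.

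**Figure D2:**
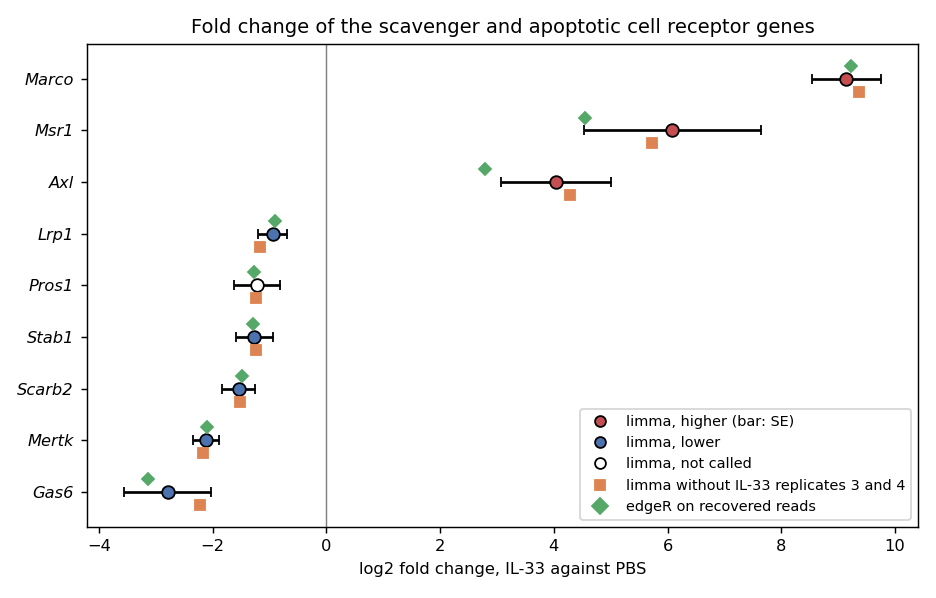
Log2 fold change of the 9 tested genes, IL-33 against PBS, from limma (circles, bars are SE), from limma without IL-33 replicates 3 and 4 (squares) and from edgeR on the recovered reads (diamonds). Marco is at 9.14 and Gas6 at -2.79, and no gene changes side between the 3 fits.

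Of the TAM receptors, Mertk (chromosome 2, 128698956 to 128802894) was at 6926, 4691, 5156 and 7185 after IL-33 and at 24140, 29224, 29531 and 20208 after PBS. The highest IL-33 library was far below the lowest PBS library. The mean fell from 25776 ± 4460 to 5990 ± 1250 (-2.11 ± 0.22, limma adjusted p = 3.19e-06), and the PBS mean was 4.30 times the IL-33 mean. Leaving out any 1 library moved the fold change between -2.22 and -2.00 and kept the call. The antisense gene Gm14011 overlaps Mertk away from its 3' end, with means of 985.9 after PBS and 318.7 after IL-33.

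Axl (chromosome 7, 25757273 to 25788705) went the other way. It was at 2210, 2709, 1768 and 1661 after IL-33 and at 29.6, 729.3, 23.8 and 443.9 after PBS. The IL-33 libraries were alike and above all PBS libraries, while PBS replicates 5 and 7, 1 of each sex, were many times below replicates 6 and 8. The mean rose from 306.7 ± 343.6 to 2087 ± 478.1 (4.03 ± 0.97, limma adjusted p = 0.0157), and edgeR gave 2.78 (adjusted p = 0.0414). The limma call was lost without IL-33 replicate 1 (adjusted p = 0.0504), IL-33 replicate 2 (0.0582) or PBS replicate 5 (0.0549), and without both male IL-33 libraries (4.29, adjusted p = 0.0652). The third TAM receptor, Tyro3, was at 0.24 ± 0.48 after IL-33 and at 0 after PBS and was not tested.

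Mertk reads exceeded Axl reads 1.73 to 4.33 times in the IL-33 libraries and 40.1 to 1240 times in the PBS libraries. The ranges were far apart. The mean log2 ratio of Axl to Mertk was -1.52 ± 0.55 after IL-33 and -7.67 ± 2.61 after PBS, a difference of 6.14 (two-sided exact permutation p = 0.0286, the smallest possible; adjusted p = 0.0857 over the 3 ratios). The adjusted p misses 0.05, since only 1 of the 3 ratios reached the smallest possible p. With 5 in place of 1 added to each value the difference was 6.04 and the adjusted p 0.0429.

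**Figure D3:**
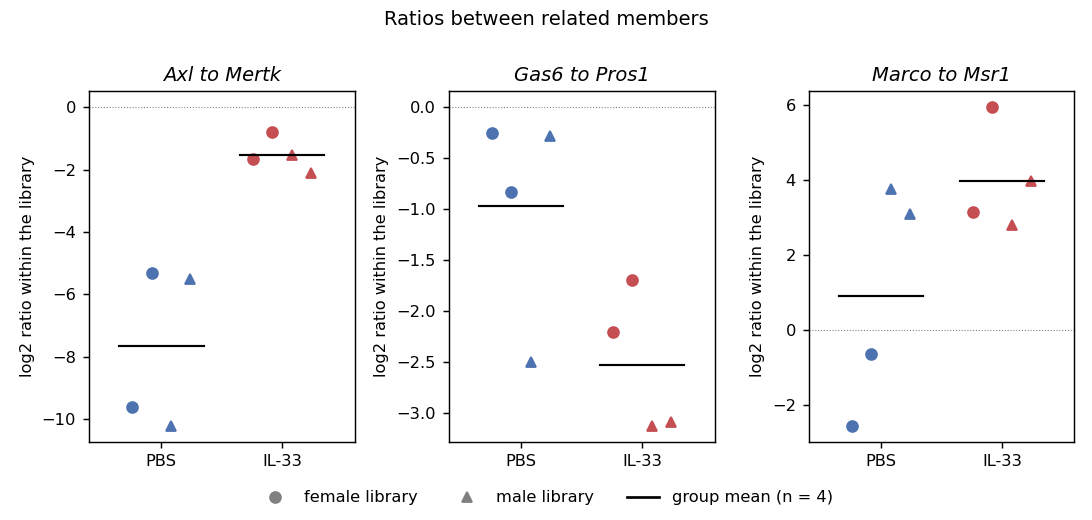
Log2 ratio of reads within each library for 3 pairs of related genes (1 added to each value); circles are female and triangles male libraries, lines are group means (n = 4), and the dotted line marks equal reads. The groups are apart for Axl to Mertk only, from -2.11 to -0.79 after IL-33 and from -10.22 to -5.32 after PBS.

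Of the TAM ligands, Gas6 (chromosome 8, 13465374 to 13494490), which activates all 3 TAM receptors, was at 313.8, 499.2, 122.4 and 265.5 after IL-33 and at 4319, 1680, 383.6 and 4202 after PBS. PBS replicate 7 was far below the other PBS libraries and below IL-33 replicate 2, so the groups overlapped. The mean fell from 2646 ± 1938 to 300.2 ± 155.6 (-2.79 ± 0.76, limma adjusted p = 0.0356), and edgeR gave -3.14 (adjusted p = 0.00322). The limma call was lost without IL-33 replicate 1 (adjusted p = 0.0548) or 3 (0.0781), without PBS replicate 5 (0.165), 6 (0.105) or 8 (0.170), and without both male IL-33 libraries (-2.22, adjusted p = 0.136). Tmem255b, which overlaps the 3' end of Gas6 on the opposite strand, had no reads.

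Pros1 (chromosome 16, 62854307 to 62929346) encodes protein S, a ligand of TYRO3 and MERTK that also serves as an anticoagulant in plasma. It was at 1455, 1620, 1079 and 2265 after IL-33 and at 5158, 3001, 2179 and 5115 after PBS. IL-33 replicate 4 was just above PBS replicate 7, the single point of overlap. The means were 1605 ± 495 and 3863 ± 1508 (-1.23 ± 0.41), and the difference did not pass (limma adjusted p = 0.0852, edgeR 0.0648). Without IL-33 replicate 4 it did (-1.41, adjusted p = 0.0249), and DESeq2 also called it (adjusted p = 0.0211).

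Gas6 and Pros1 could not be shown to have moved by different amounts. Their log2 ratio was -2.53 ± 0.70 after IL-33 and -0.97 ± 1.06 after PBS, a difference of -1.56 (two-sided exact permutation p = 0.0857, adjusted p = 0.129). Without both male IL-33 libraries it was -0.98 (exact permutation p = 0.4, adjusted p = 0.4). Libraries 5, 6 and 8 of the PBS group had higher ratios than every IL-33 library, and PBS replicate 7 lay among the IL-33 values.

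Lrp1 (chromosome 10, 127538161 to 127621148) was at 4028, 5460, 5672 and 7296 after IL-33 and at 10665, 10486, 11656 and 9527 after PBS. The groups did not overlap. The mean fell from 10583 ± 872 to 5614 ± 1338 (-0.94 ± 0.25, limma adjusted p = 0.0300), the smallest called change among these genes. edgeR did not call it (-0.91, adjusted p = 0.0632). Of the 8 fits that left out 1 library only that without IL-33 replicate 4 kept the call. The adjusted p was 0.0673, 0.0620 and 0.0537 without IL-33 replicates 1, 2 and 3, and 0.0841, 0.0891, 0.0960 and 0.0655 without PBS replicates 5 to 8.

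The IL-33 effect was also compared between the sexes, with 2 libraries for each treatment and sex. All 9 genes had the same direction in females and in males. For all but Gas6 and Pros1 this follows from IL-33 and PBS values that do not overlap, and adds nothing. In females Marco was called higher and Mertk lower (0.713% of tested genes were called higher and 0.259% lower), and in males Marco and Msr1 were higher and Mertk lower (1.02% and 0.872% of tested genes). Mertk changed by -2.22 ± 0.32 in females (limma adjusted p = 0.0120) and -2.00 ± 0.32 in males (adjusted p = 0.0163). Marco changed by 9.38 ± 0.74 in females (adjusted p = 9.87e-04) and 8.90 ± 0.74 in males (adjusted p = 6.39e-04). Msr1 differed most in size, at 3.24 ± 1.69 in females and 8.93 ± 1.69 in males (limma adjusted p = 0.516 and 0.0325). The male PBS libraries held 1 and 3 reads of Msr1 and the female ones 187 and 41, so the size in males depends on the 1 added to each value. The sex difference of Msr1, -5.69 ± 2.39, had an unadjusted limma p of 0.0400 and an adjusted p of 0.783. No gene of the 13877 passed the test of a sex difference in limma (0.00% called, 809 genes with an unadjusted p under 0.05) or in edgeR (0 genes).

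The genes whose values over the 8 libraries were most like those of Marco, by the root mean square difference of centred log2 values among 3115 genes with a mean of at least 1000, were the chemokine gene Cxcl2 (difference 0.29), the chemokine receptor gene Ccr7 (0.31) and the chemokine gene Ccl22 (0.31). Their PBS means were 0.152%, 0.207% and 0.186% of their IL-33 means. Their log2 fold changes were 9.04, 8.84 and 8.97, against 9.14 for Marco. With 2 groups this measure depends mostly on the size of the difference between them. It therefore picks genes of like fold change and does not show that genes vary together within a group. Most like Mertk were Soga1 (0.16), Vsir, which encodes the inhibitory checkpoint receptor VISTA (0.23), and Acss1, a mitochondrial acetyl-CoA synthetase (0.24). Vsir went from 45074 ± 7576 to 10223 ± 2593 (-2.16, limma adjusted p = 5.63e-07). Soga1 changed by -1.95 and Acss1 by -2.20, against -2.11 for Mertk.

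Other genes of scavenging and of the clearance of dying cells were described by a list of 100 genes in 9 roles, of which 80 were tested. Of these 11 rose, 7 fell and 62 did not pass (13.8% and 8.75% of those tested, against 3.06% and 2.80% of all tested genes). Their median log2 fold change was -0.20. Among the 3116 tested genes with a mean of at least 1000, 341 were called higher and 260 lower. Those shares are nearer to the shares of the list than the shares of all tested genes are. The part of abundance in these shares was not tested. The counts per role below stand beside the same shares, and no role was tested as a set. The calls of the wider list were spread over 8 of the 9 roles. Without a variance trend 10 of these calls were lost, among them those of Itgb5, Havcr2, Rac2, Vav1, Uvrag, Nfe2l2, P2ry6 and Sirpa (limma adjusted p = 0.0604 to 0.362), and without a filter Olr1, Havcr2 and Vav3 did (0.0805 to 0.0953). Without both male IL-33 libraries 4 were lost, among them Olr1 (0.0715), Vav3 (0.0627) and P2ry6 (0.0711), and with sex as a covariate Havcr2 lost its call (0.0544). Under quantile normalization, which moved the median of all genes by 0.29, Trem2 (-1.16, adjusted p = 0.00724) and Maf (-0.69, adjusted p = 0.0473) were called lower.

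**Figure D4:**
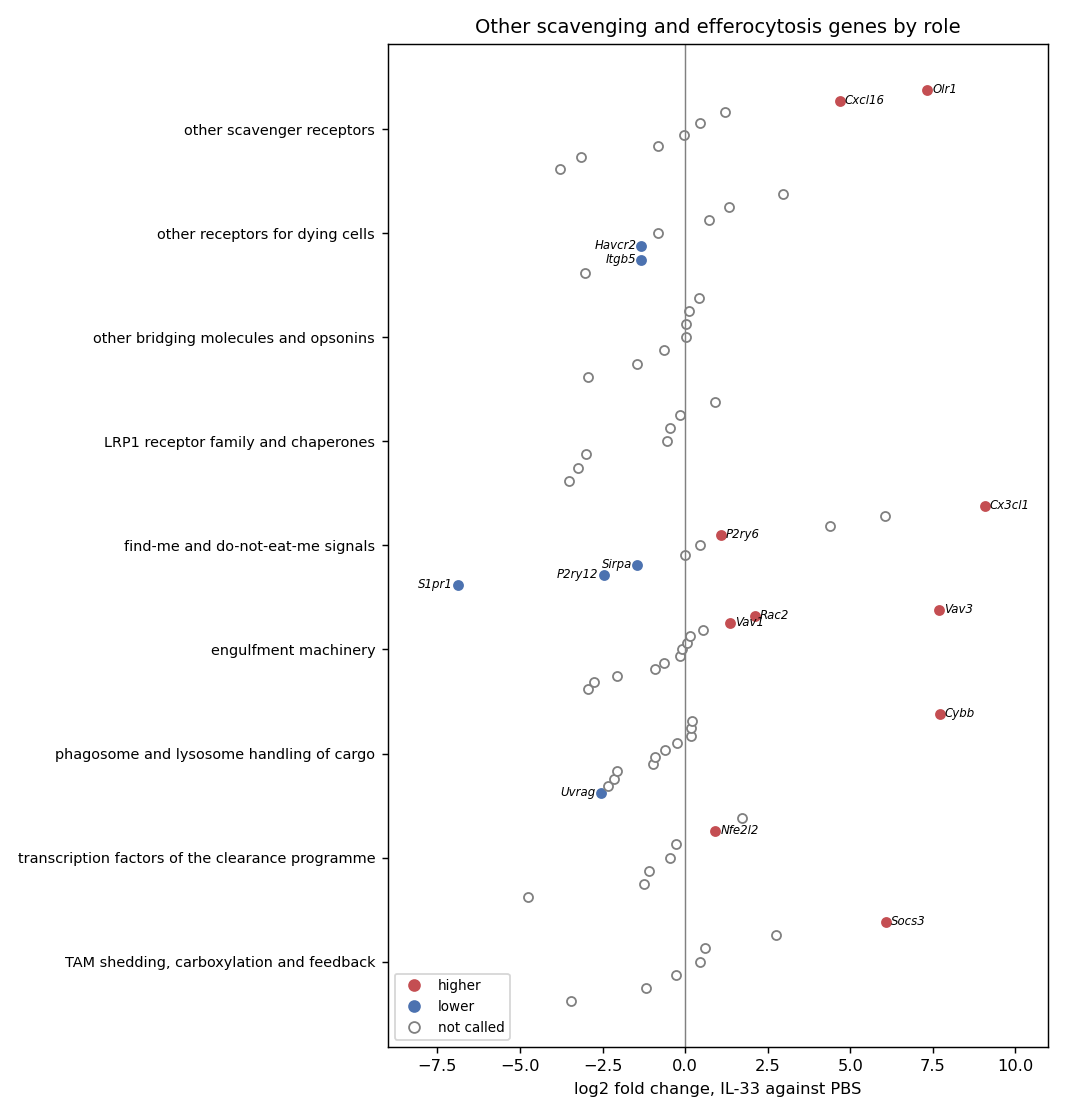
Log2 fold change of 77 of the 80 tested genes of the wider list by role, IL-33 against PBS; filled circles passed the limma test and carry their names, open circles did not. The role of other bridging molecules and opsonins, without Gas6 and Pros1, has no filled circle and a median of 0.02. S1pr1 lies lowest of the filled circles, at -6.87.

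Of 8 other scavenger receptors tested 2 rose, 0 fell and 6 did not pass. Cxcl16, which encodes a membrane-bound chemokine that also binds oxidised lipoprotein, rose from 912.4 ± 335.7 to 22538 ± 3144 (4.68 ± 0.31, limma adjusted p = 6.01e-09). Olr1, the lectin-like receptor for oxidised LDL, was at 0.81 ± 0.06 after PBS, 1 read in each library, and at 395.4 ± 230.3 after IL-33 (limma adjusted p = 0.0372). That call was lost in 7 of the 8 fits without 1 library, all but that without IL-33 replicate 4 (adjusted p = 0.0693 to 0.0894), whereas edgeR kept it in all libraries (adjusted p = 0.00753). Cd68, a lysosomal scavenger receptor of macrophages, was at 9361 ± 1566 (IL-33) and 9593 ± 2094 (PBS) (-0.02 ± 0.24, limma adjusted p = 0.967).

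Of 7 other receptors for dying cells 0 rose, 2 fell and 5 did not pass. Itgb5, a subunit of the integrin that binds the bridging protein MFG-E8, fell from 14135 ± 1405 to 5802 ± 1693 (-1.33 ± 0.25, limma adjusted p = 0.00256). Havcr2, which encodes the phosphatidylserine receptor TIM-3, fell from 5117 ± 1442 to 2100 ± 957.7 (-1.33 ± 0.38, limma adjusted p = 0.0426), with groups that overlapped. Its call was lost without IL-33 replicate 1 (adjusted p = 0.0918) or 2 (0.0819) and without PBS replicate 5 (0.147), 6 (0.124) or 7 (0.129). Trem2, a receptor for lipids and apolipoprotein E, was at 11495 ± 5760 (IL-33) and 18973 ± 4785 (PBS) (-0.84 ± 0.31, limma adjusted p = 0.131).

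Besides Gas6 and Pros1, none of the 7 other bridging molecules and opsonins tested passed in limma. C1qc, a chain of the complement component C1q, was at 126803 ± 10195 (IL-33) and 124861 ± 9832 (PBS) (0.02 ± 0.10, limma adjusted p = 0.926). Of 8 tested genes of the receptor family of LRP1 and its chaperones 1 rose, 0 fell and 7 did not pass. Calr, which encodes calreticulin, a ligand of LRP1 on dying cells, was at 14055 ± 6936 (IL-33) and 18465 ± 4991 (PBS) (-0.55 ± 0.34, limma adjusted p = 0.392).

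Among 9 genes of signals by which dying cells attract or living cells repel phagocytes 2 rose and 3 fell. Cx3cl1, the chemokine fractalkine, was at 3.33 ± 1.74 (PBS) and 2228 ± 860.3 (IL-33) (limma adjusted p = 3.00e-04), and its receptor Cx3cr1 at 195362 ± 46104 and 197999 ± 51970 (0.01 ± 0.16, adjusted p = 0.978). P2ry12, a receptor for nucleotides released by damaged cells, fell from 71702 ± 19596 to 13030 ± 4520 (-2.47 ± 0.23, limma adjusted p = 7.01e-07). S1pr1, a receptor for sphingosine-1-phosphate, went from 907.2 ± 539.3 to 28.1 ± 52.6 (-6.87 ± 1.67, limma adjusted p = 0.0172), a call lost without any 1 of PBS replicates 5 to 8 (adjusted p = 0.0658 to 0.108). The other called genes of this role were named after their values were seen. P2ry6, a receptor for the nucleotide UDP, rose from 7004 ± 1757 to 14707 ± 2777 (1.08 ± 0.24, limma adjusted p = 0.0101), a call lost without PBS replicate 8 (adjusted p = 0.0506), without both male IL-33 libraries (0.95, adjusted p = 0.0711) and without a variance trend (0.311). Sirpa, the receptor for the do-not-eat-me signal CD47, fell from 30237 ± 2953 to 11666 ± 4582 (-1.44 ± 0.23, limma adjusted p = 4.16e-04), a call lost only without a variance trend (0.195) among the 21 alternatives.

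In the engulfment machinery 3 of 13 tested genes rose and 0 fell. Rac2, a GTPase that drives the phagocytic cup, rose from 2343 ± 603 to 9923 ± 1070 (2.11 ± 0.29, limma adjusted p = 8.29e-05). Vav1, an exchange factor for Rac, rose from 3936 ± 705.7 to 10183 ± 2406 (1.36 ± 0.27, limma adjusted p = 0.00398). The related Vav3 had 1 read in all PBS libraries together and was at 384.6 ± 312.8 after IL-33 (limma adjusted p = 0.0351), a call lost in 7 of the 8 fits without 1 library, all but that without IL-33 replicate 3 (adjusted p = 0.0642 to 0.0893). Tyrobp, the adaptor of TREM2, was at 34668 ± 5730 (PBS) and 38361 ± 5762 (IL-33) (0.15 ± 0.16, limma adjusted p = 0.625).

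Of 13 genes that handle cargo in phagosomes and lysosomes 1 rose and 1 fell. Cybb, the catalytic subunit of the phagocyte NADPH oxidase, rose from 31.5 ± 38.6 to 4479 ± 827.5 (7.71 ± 0.91, limma adjusted p = 1.18e-05). Uvrag, a partner of the lipid kinase complex of phagosome maturation, fell from 1828 ± 468 to 346.8 ± 204.2 (-2.56 ± 0.62, limma adjusted p = 0.0159), a call lost without PBS replicate 5 (adjusted p = 0.0556), 6 (0.0786) or 8 (0.0645). Lamp1, a lysosomal membrane protein, was at 12044 ± 9498 (IL-33) and 11463 ± 3402 (PBS) (-0.23 ± 0.43, limma adjusted p = 0.776).

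Of 8 tested transcription factors of clearance genes 1 rose and 1 fell. Maf, a basic leucine zipper factor, was at 40358 ± 7075 (PBS) and 34822 ± 13053 (IL-33) (-0.28 ± 0.23, limma adjusted p = 0.537). Nfe2l2, which encodes the oxidative stress regulator NRF2, rose from 6714 ± 576.9 to 12762 ± 2015 (0.92 ± 0.22, limma adjusted p = 0.0179). Its call was lost without IL-33 replicate 1 (adjusted p = 0.0514) or 2 (0.0526), without PBS replicate 5 (0.0551) or 6 (0.0686), and under quantile normalization (0.65, adjusted p = 0.112). Among 7 tested genes of TAM shedding, carboxylation and feedback 1 rose and 0 fell. Socs3, an inhibitor of cytokine signalling, rose from 259.6 ± 353.3 to 8448 ± 6509 (6.08 ± 0.90, limma adjusted p = 2.02e-04). Adam10, a surface protease that sheds membrane proteins, was at 5783 ± 2128 (PBS) and 2697 ± 1463 (IL-33) and did not pass (-1.18 ± 0.40, limma adjusted p = 0.0908), but did without IL-33 replicate 4 (-1.49, adjusted p = 0.00897), without both male IL-33 libraries (-1.81, adjusted p = 0.00886) and under quantile normalization (-1.35, adjusted p = 0.0161).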

How the data were processed

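The authors deposited 1 signal per gene and library, called normalized counts per the file headers. In every library 100% of nonzero values were, within 0.01 read, a whole number of steps of 1 read each, so whole reads could be recovered. FastQC, STAR 2.5.4b, HTSeq 0.9.0, DESeq2 1.24.0, mm10 and GRCm38 are named in the submitters' processing notes, without roles. No source used here states strand use, or how duplicates and reads with several matches were treated. Reads without molecular identifiers are not independent molecules.

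Coordinates are from GENCODE M21 (GRCm38). No 2 libraries held identical values. The Pearson correlation of log2(value + 1), over genes with a mean of at least 10, was 0.689 to 0.735 between IL-33 libraries and 0.701 to 0.734 between PBS libraries. Between an IL-33 and a PBS library it was 0.604 to 0.663, so libraries of the same group were only moderately alike. The labels do not say whether each library came from its own animal, so p-values measure the spread between these libraries, which may be technical. limma 3.58.1 in R 4.3.3 (variance trend, group as sole term, two-sided) was run on log2(value + 1) for genes with a mean of at least 10. Sex effects came from a limma model with a mean per treatment and sex. Recovered reads were also tested with edgeR 4.0.16 (its quasi-likelihood test) and with DESeq2 1.42.0. The limma and edgeR code was run on simulated data whose spread was fixed and not taken from these libraries. That run checks the code and says nothing of how sure the calls here are. Named genes of the wider list were, for each role, up to 3 called genes with the largest change and the most abundant tested gene not called; the motifs were chosen after the expression values were seen. The genes and lists were chosen with earlier results of these data known. A few genes of the wider list are counted but not reported here by name.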

Additional observations from a re-analysis of the deposited data

Results flagged for a closer look

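In 7 of 76 groups of 4 libraries, 1 library stood far from the other 3: its gap to the nearest, divided by the range of the group, exceeded the critical value of Dixon's test, which chance alone does in about 1 of 20 groups. None was a scavenger or apoptotic cell receptor gene of the main list. In the PBS group, Lamp1 had a quotient of 0.893 (6383 in replicate 7 against 12793 to 13564) and Maf one of 0.927 (29767 in replicate 7 against 43274 to 44336). Cybb had 0.922 there (89.4 in replicate 8 against 9.37 to 15.6). Cx3cl1 had 0.957 (0.73 in PBS replicate 8 against 4.11 to 4.26) and Vav3 1.00 (0.85 in PBS replicate 6 against 0), both of which rest on single reads. In the IL-33 group, S1pr1 had 0.985 (107.0 in replicate 1 against 0.96 to 2.54) and Socs3 0.837 (18107 in replicate 4 against 3975 to 6276).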

How the results depend on the processing

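The 9 tested genes kept their direction under all 21 alternatives, and calls were lost in 41 cases and gained in 3. Of genes called higher and lower, all tested genes had 424 and 388, the 9 genes 3 and 5, and the wider list 11 and 7. Without the variance trend these were 175 and 238, 1 and 0, and 6 and 2, with Marco the 1 gene left. At an adjusted p under 0.01 they were 228 and 149, 1 and 2, and 6 and 4. DESeq2 called 790 and 877 genes; without a filter 204 genes were lower, and 1 and 3 of the 9. Quantile normalization called 11 of the wider list lower. It shifted the median over all tested genes by 0.29, edgeR shifted it by 0.32 and DESeq2 by 0.31. The fit without both male IL-33 libraries shifted that median by 0.28, and there 1 of the 9 and 7 of the wider list were higher. Leaving out 1 library gave 305 to 432 genes higher and 153 to 531 lower over all, 1 to 3 and 2 to 6 of the 9, and 8 to 10 and 4 to 10 of the wider list.

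With 5 added to each value the ratio of Axl to Mertk (6.04) and that of Marco to Msr1 (3.60) passed at an adjusted p of 0.0429 each. Leaving out 1 library, the difference in log2 ratio was 5.29 to 6.92 for Axl to Mertk, -2.07 to -1.32 for Gas6 to Pros1 and 1.90 to 4.00 for Marco to Msr1. Values not called in the main test changed sign: Cd68 (-0.134 to 0.0951 over the fits without 1 library), C1qc (-0.0181 to 0.0801 over those fits, -0.202 under quantile normalization), Cx3cr1 (-0.146 to 0.161 over those fits), Calr (0.0366 without both male IL-33 libraries), Tyrobp (-0.225 under quantile normalization), Lamp1 (-0.705 to 0.216 without 1 library, 0.0726 in DESeq2 and 0.0842 in edgeR) and the sex difference of Axl (-0.110 in edgeR). The cause was not tested. No paired analysis was possible because the 2 groups share no replicate number. With 26 to 36 reads of Marco and 1 to 187 of Msr1 per PBS library, depth limits their ratio there.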
